A study of Mus musculus with 2 samples.

Results

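The cells described here are the singlets of cluster 9, the cluster with the lowest median number of transcripts per cell among the 12 clusters that the authors numbered in a single-cell RNA sequencing experiment on mouse natural killer (NK) cells. A cell was taken as a member when the deposited cluster table placed it in cluster 9 and the deposited hashtag classification gave it a single hashtag. By this rule 323 of 7479 singlets were members, which is 4.32% (95% exact binomial interval 3.87 to 4.80). The other 7156 singlets, in the other 11 clusters, served for comparison. Clusters 6 and 7, which also held shallow cells, were set beside it separately, with 412 and 478 singlets. Clusters are ordinarily drawn from the expression of the same cells, and the labels do not say how these were made, so every difference in expression between cluster 9 and the other clusters is given as a description and carries no test.

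The study examined NK cells of mice bearing MC38 tumours, a colon carcinoma line grown under the skin, in animals that were fasted in cycles or fed ad libitum. All mice were C57BL/6 and 12 weeks old. From tumour, bone marrow and spleen, cells negative for lineage markers and positive for NK1.1 and CD49b were sorted, stained with 1 hashtag antibody per population and loaded together on 1 lane of a 10X Chromium instrument. The 10 populations were NK cells of fasted, refed and ad libitum mice from each of the 3 tissues, and of naive spleen. Tumours were digested with DNase I and collagenase 4, bone marrow was flushed and spleens were strained, so tissue and dissociation cannot be told apart. The labels used here do not say how many mice entered a population or in what sense the naive spleen was naive, and each population, with its 1 hashtag, is 1 sample. Cells are not replicates, and no p-value is given anywhere.

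NK cells are innate lymphocytes that kill tumour and infected cells with perforin and granzymes and secrete interferon gamma and chemokines. Most of the messenger RNA of a cell lies in the cytoplasm, where ribosomal protein transcripts are among the most abundant, whereas some long noncoding RNAs such as Malat1 stay in the nucleus, and 13 proteins are encoded by the mitochondrial genome. The relative amounts of these RNA classes are commonly used to describe shallow droplets.

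The population of a cell rested on its hashtag, an antibody-borne oligonucleotide. The tags of the 6 populations with 17 or more cluster 9 cells are shown because every comparison between populations reads from them. They are 15 bases long and are printed 5′ to 3′ with all bases in capitals because the whole tag identifies a population. Each differs from the nearest other tag of the set at 7 to 10 bases.
Spleen fasted (B0307): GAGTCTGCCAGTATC
Spleen refed (B0308): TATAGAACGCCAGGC
Spleen ad libitum (B0309): TGCCTATGAAACAAG
Spleen naive (B0310): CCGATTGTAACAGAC
Tumour fasted (B0301): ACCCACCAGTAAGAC
Bone marrow ad libitum (B0306): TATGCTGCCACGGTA

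Cluster 9 cells were shallow. A cluster 9 singlet had a median of 1399 UMIs (quartiles 1070 and 1818) and 757 detected genes, whereas a singlet of the other clusters had a median of 4527.5 UMIs (quartiles 3340 and 6540.75) and 1649 genes. Cluster 6 had a median of 2205 UMIs and cluster 7 of 2710 UMIs. The ranges overlapped: the cluster 9 cells ran between 698 and 7697 UMIs, and 279 of the 7156 other cells (3.90%) lay at or below the cluster 9 median, of which 91 belonged to cluster 6 and 109 to cluster 7. The summed depth of the 323 cells was 516579 UMIs, so that a gene with 0 UMIs in cluster 9 may have had up to 5.81 CPM (counts scaled to a total of 1000000; the limit is 3 counts). The deposited matrix held no cell under 683 UMIs or 369 genes or above 20% mitochondrial UMIs, so cells beyond those bounds could not be seen.

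What set cluster 9 apart from the other shallow clusters was the make-up of its RNA. Malat1 took a median of 8.93% of the UMIs of a cluster 9 cell (quartiles 7.34 and 10.7), against 2.57% in the other clusters (quartiles 1.74 and 3.65), 3.86% in cluster 6 and 2.14% in cluster 7. Of the cluster 9 cells, 242 (74.9%) had a Malat1 share at or above 7.34%, the cluster 9 lower quartile, against 24 of 7156 other cells (0.335%). Transcripts of the mitochondrial genome took a median of 7.92% in cluster 9, against 2.79% in the other clusters, 13.5% in cluster 6 and 3.0% in cluster 7. Cytosolic ribosomal protein transcripts took 9.49% in cluster 9, against 22.1% in the other clusters, 11.4% in cluster 6 and 19.3% in cluster 7. The ribosomal RNA-linked gene models took 1.90% in cluster 9, against 2.14% in the other clusters, 1.58% in cluster 6 and 7.52% in cluster 7. Among these 3 shallow clusters the Malat1 median was highest in cluster 9, the mitochondrial median in cluster 6 and the median of ribosomal RNA-linked models in cluster 7. The plot of share against depth shows the 3 clusters with overlapping depths and overlapping mitochondrial shares. The quartiles of the mitochondrial share were 5.62% and 10.7% in cluster 9 and 10.1% and 16.4% in cluster 6.

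**Figure D1:**
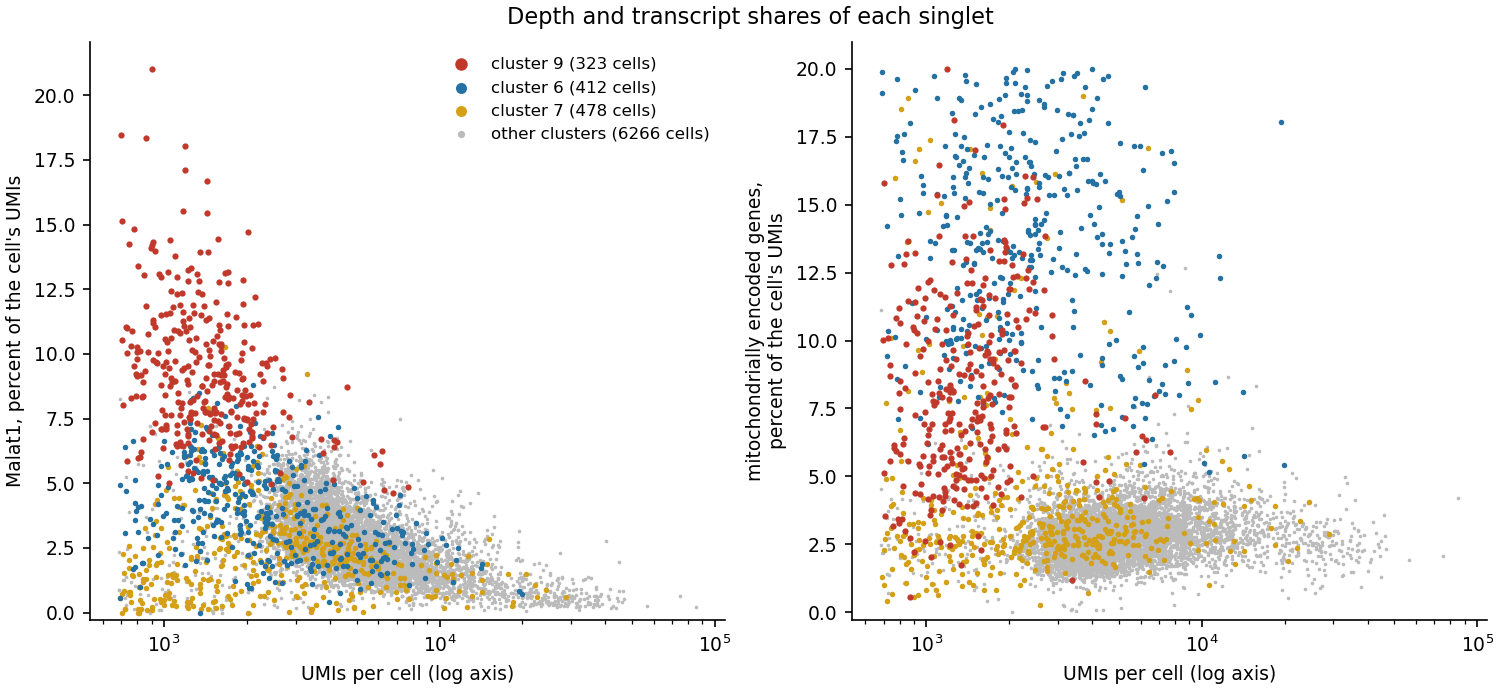
Each point is 1 singlet; the horizontal log axis gives its UMIs, and the vertical axes give the percentage of its UMIs from Malat1 (left) and from the mitochondrial genome (right). Cluster 9 (red) lies at low depth with medians of 8.93% Malat1 and 7.92% mitochondrial UMIs, cluster 6 (blue) at 3.86% and 13.5%, and cluster 7 (yellow) at 2.14% and 3.0%.

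**Figure D2:**
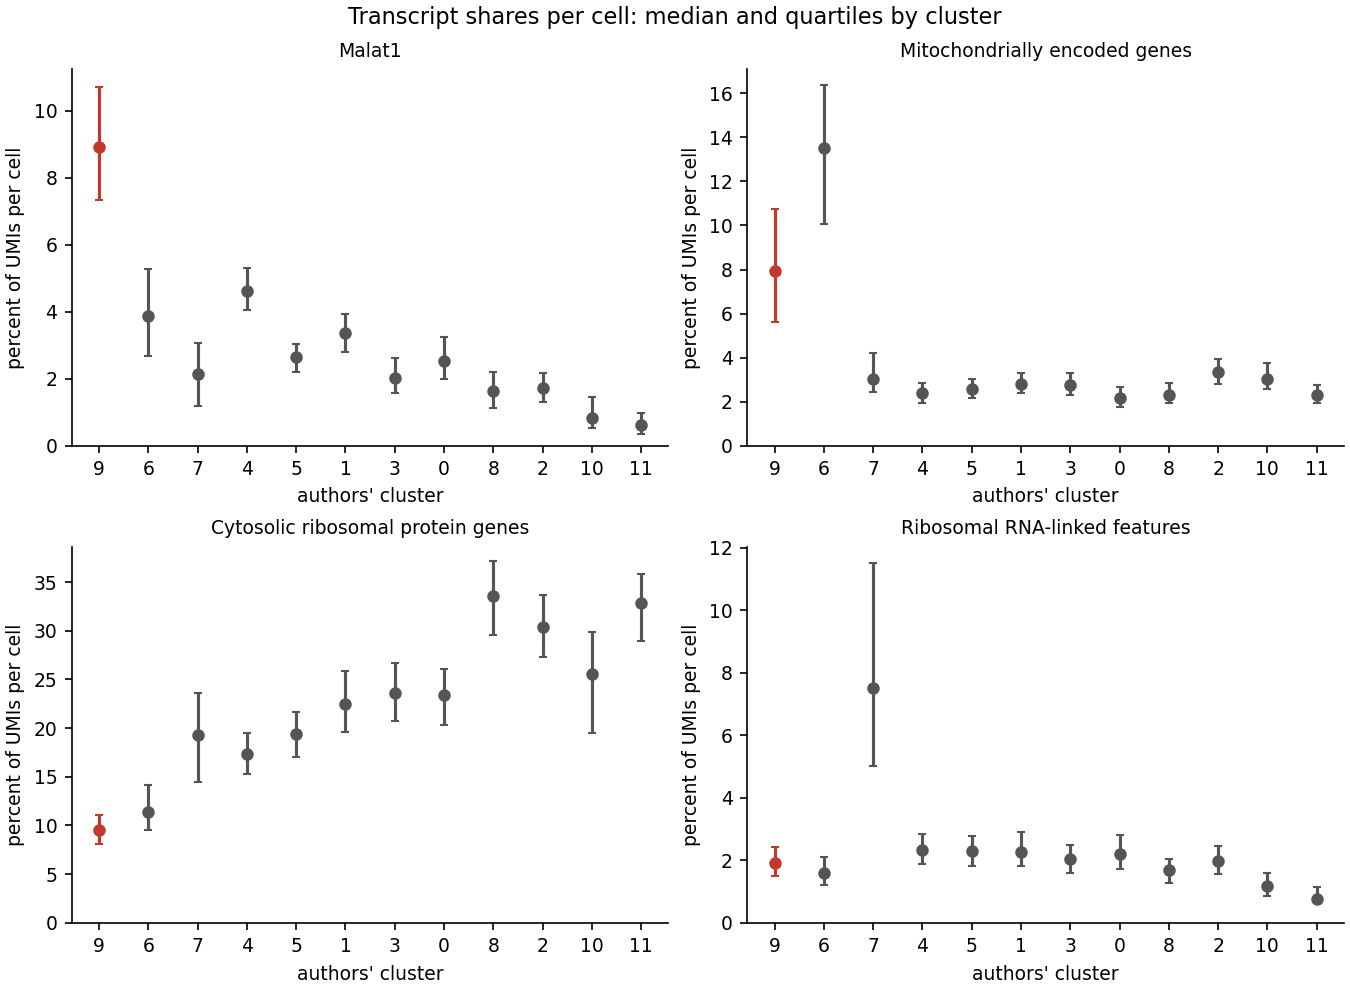
Medians and quartiles over cells of the percentage of UMIs from Malat1, the mitochondrial genome, cytosolic ribosomal protein genes and ribosomal RNA-linked gene models, by cluster, with cluster 9 on the left. Cluster 9 had the highest median Malat1 share of the 12 clusters (8.93%, against 4.63% in cluster 4, the next) and the lowest median ribosomal protein share (9.49%, against 11.4% in the next lowest, cluster 6).

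The same make-up was seen in each population. In all 10 populations the median cluster 9 cell had fewer UMIs, fewer genes and a lower ribosomal protein share than the median cell of the other clusters, and a higher mitochondrial share and Malat1 share. Refed tumour and fasted bone marrow held only 1 cluster 9 cell each, ad libitum tumour 2 and refed bone marrow 6. The cells were grouped into a cluster before they were split by population, so this likeness is a description only. Over the 6 populations with 17 or more cluster 9 cells, the median Malat1 share ran from 8.34% to 9.70% in cluster 9, against 1.58% to 2.97% in the other clusters, and the mitochondrial share from 6.95% to 8.46%, against 2.25% to 3.43%. The 2 sets of populations did not overlap in either measure. The ribosomal protein share ran from 8.23% to 10.4% in cluster 9, against 20.1% to 26.6% in the other clusters, again without overlap.

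Within cluster 9 the measures also moved with depth. The 108 shallowest cells (median 972.5 UMIs) had a median Malat1 share of 9.72% and a ribosomal protein share of 10.6%, and the 108 deepest cells (median 2004 UMIs) had 8.08% and 8.50%. Across the 323 cells the rank correlation of UMIs was -0.33 with the Malat1 share and -0.35 with the ribosomal protein share, and 0.16 with the mitochondrial share. The mitochondrial share and the share of 12 NK marker genes had a rank correlation of -0.39. Shares of the same cell sum to a fixed total and share its depth, so these values describe the cells only.

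The sorted cell type was checked against marker lists. All 12 NK marker genes were detected, and their summed level was 40389 CPM in cluster 9, against 26436 CPM in the other clusters, with a range of 25452 to 46157 CPM over the 6 cluster 9 populations. Gzma alone gave 20100 CPM of the cluster 9 sum and 11677 CPM of the sum in the other clusters. T cell markers, of which 11 of 14 were detected, summed to 962 CPM in cluster 9, against 843 CPM, with Cd4, Cd8a and Cd5 at 0. B cell markers (6 of 11 detected) summed to 240 CPM, against 294 CPM, with Cd79a, Ms4a1, Igkc and Pax5 at 0. The T cell sum ran from 716 to 1927 CPM over the 6 cluster 9 populations. Monocyte and macrophage markers (12 of 14 detected) summed to 710 CPM, against 630 CPM, with Cd14 and Ms4a7 at 0, and dendritic cell markers (5 of 11 detected) to 540 CPM, against 449 CPM. A single cell of ad libitum tumour, with 3368 UMIs, held 213 of the 367 monocyte and macrophage UMIs and 62 of the 124 B cell UMIs of cluster 9, and without it these sums were 300.1 CPM and 121 CPM. Neutrophil markers (9 of 12 detected) summed to 114 CPM in cluster 9, against 563 CPM in the other clusters, with Mpo, Elane and Cxcr2 at 0. Progenitor markers summed to 38.7 CPM, against 16.1 CPM, endothelial and stromal markers to 69.7 CPM, against 43.5 CPM, and erythroid markers to 215 CPM, against 258 CPM. The lists for basophils or mast cells and for MC38 epithelium had 0 UMIs in cluster 9. At least 3 UMIs of the defining markers of another cell type were found in 5 of 323 cluster 9 cells and in 348 of 7156 deeper cells of the other clusters. At least 3 UMIs of the defining NK markers were found in 232 of the 323 cluster 9 cells (71.8%) and in 6568 of the 7156 other cells (91.8%). The part of the lower depth of cluster 9 in this was not tested. In summed counts the NK label thus held for cluster 9, and it was not shown for every cell. The ad libitum tumour cell stood apart by its macrophage UMIs, and the part of the other lists' differences in the results was not tested.

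Levels of single genes were compared as summed UMIs scaled to CPM, and a ratio was the log2 of cluster 9 over the other clusters after adding 5 CPM. A gene was counted as higher or lower when the ratio was at least 1 on the log2 scale in size, the gene reached 20 CPM in at least 1 of the groups and the 95% interval of its counts left out 0. By this rule 1011 of 6233 genes (16.2%) were higher in cluster 9 and 393 (6.31%) were lower, 22.5% in all. This split depends on the scaling. With TMM factors 156 genes were higher and 1092 lower, and with mitochondrial, ribosomal protein and ribosomal RNA-linked genes left out of the totals 682 were higher and 664 lower. Of the 6233 genes 4006 had a ratio above 0 with CPM, the background for the counts of list members below. The median ratio of all 6233 genes was 0.35 with CPM and -0.07 with TMM factors. A list median of 0.35 is therefore that of an ordinary gene. Ratios below stand beside that median, and many also beside the ratio over the 536 cells of the other clusters with a matched depth (median 1543 UMIs; 195 of them from cluster 6 and 175 from cluster 7), for which the median ratio of all genes was 0.13.

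Among the genes named by the rule, Malat1 had the highest ratio, and other RNAs retained in the nucleus were also higher. Malat1, a nuclear RNA of splicing speckles (mm10, chr19:5795690-5802672, minus strand), had 86362, 85834, 92032 and 89195 CPM in the cluster 9 cells of fasted, refed, ad libitum and naive spleen, 88053 CPM in fasted tumour and 73739 CPM in ad libitum bone marrow. In the other clusters the same populations had 28278, 25997, 27053, 28503, 15928 and 13290 CPM. Each cluster 9 population stood above all of the others. Summed over populations, Malat1 had 86868 CPM in cluster 9, against 22090 CPM, a log2 ratio of 1.98 (interval 1.96 to 1.99), and the ratio was 1.35 over cluster 6 and 1.28 over the depth-matched cells. Neat1, the scaffold of nuclear paraspeckles (chr19:5824708-5845478, minus strand), had 639 CPM, against 202 CPM, a ratio of 1.64 (1.47 to 1.79). It was higher in 6 of 6 populations, and the ratio was 1.03 over cluster 6 and 1.21 over the depth-matched cells. Xist, the RNA that coats the inactive X chromosome (chrX:103460366-103483254, minus strand), had 395 CPM, against 117 CPM, a ratio of 1.72 (1.51 to 1.92), but was at -0.18 over cluster 6. Of the 4 tested genes of the nuclear-retained list, 3 were past the fold upwards, against 16.2% of all genes, and the list median was 1.68.

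The protein-coding genes at the top of the ranking were of mixed function. Ogt, which encodes the enzyme that attaches O-linked N-acetylglucosamine to proteins (chrX:101640060-101684351, plus strand), had 498 CPM in cluster 9, against 136 CPM, a ratio of 1.83 (1.65 to 2.01), and was higher in 6 of 6 populations. Macf1, a giant linker of actin and microtubules, had 697 CPM, against 213 CPM, a ratio of 1.69 (1.53 to 1.84), and 0.33 over cluster 6. Pan3, a subunit of the poly(A)-shortening nuclease, had 170 CPM, against 46.1 CPM (1.78), and the noncoding RNA Mirt1 had 184 CPM, against 50.7 CPM (1.76). The other genes among the 15 highest were Fosb, Tmcc1, Cmah, Npc1, Clcf1, Lpar6, Nisch, Plcxd2 and Chfr, with ratios between 1.66 and 1.74. All 15 had a ratio above 0 over the depth-matched cells, and 14 of them, all but Xist, over cluster 6.

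All 13 protein-coding genes of the mitochondrial genome were higher in cluster 9, with ratios of 1.15 to 1.68 and a summed level of 83015 CPM, against 31924 CPM. mt-Co1, a subunit of cytochrome c oxidase, had 14349, 14943, 14624 and 14598 CPM in the cluster 9 cells of fasted, refed, ad libitum and naive spleen, 21275 CPM in fasted tumour and 17246 CPM in ad libitum bone marrow. In the other clusters these populations had 6386, 5954, 5419, 5672, 5423 and 7209 CPM, all below every cluster 9 value. The mt-Co1 ratio was 1.34 (1.31 to 1.37), and mt-Atp6, a subunit of ATP synthase, had 18102 CPM, against 6649 CPM (1.44). The list median of 1.34 was 0.22 over the depth-matched cells and -0.57 over cluster 6. The mitochondrial transcripts were thus higher in cluster 9 than in most cells and lower than in cluster 6.

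Nuclear genes of the same respiratory chain went the other way. Of 35 tested nuclear genes of oxidative phosphorylation, 0 had a ratio above 0 and 21 were past the fold downwards, against 6.31% of all genes. Their median was -1.03, and their summed level was 7141 CPM in cluster 9, against 14715 CPM. Atp5e, a small subunit of ATP synthase, had 308 CPM, against 983 CPM, a ratio of -1.66 (-1.89 to -1.44), and was lower in 6 of 6 populations. Uqcrh, a subunit of the cytochrome bc1 complex, had 327 CPM, against 818 CPM (-1.31), and Cox8a, a subunit of cytochrome c oxidase, had 643 CPM, against 1180 CPM (-0.87). Etfa, which passes electrons from fatty acid oxidation to the chain, had 15.5 CPM, against 61.2 CPM (-1.69). The list median was -0.56 over the depth-matched cells and -0.32 over cluster 6, so these nuclear genes were lower in cluster 9 than in all 3 sets of cells.

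Cytosolic ribosomal protein genes were lower almost without exception. Of 82 such genes 80 were tested, and 78 of them were past the fold downwards, against 6.31% of all genes. Their median was -1.39, and their sum was 96564 CPM in cluster 9, against 254610 CPM in the other clusters. Rps24, a protein of the small subunit, had 2632, 2265, 2155 and 2256 CPM in the cluster 9 cells of fasted, refed, ad libitum and naive spleen, 2642 CPM in fasted tumour and 2973 CPM in ad libitum bone marrow. The other clusters had 7400, 7598, 6912, 7422, 8403 and 7474 CPM in those populations, so that the groups did not overlap. The lowest ratios were those of Rps15a (1421 CPM, against 5046 CPM, -1.82), Rps24 (-1.68) and Rpl26 (-1.67). The 2 genes that were not past the fold were Rpl13a (-0.79) and Rpl7l1 (-0.62), and both were low in either group, with at most 120 CPM. The family median was -0.72 over the depth-matched cells and -0.51 over cluster 6.

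Messenger RNAs of ribosomal proteins begin with a run of pyrimidines at the cap, the terminal oligopyrimidine motif, through which their translation is controlled together. RefSeq windows of 30 bases around the annotated start (10 bases before it, 20 from it, mm10 patch release GRCm38.p6) were found for 61 of the 82 genes. The letters CTTTCC on the strand of the gene were present in 10 of these 61 windows (16.4%), against 71 of 4825 windows of other tested genes (1.47%) and 412 of all 27025 (1.52%). The reverse complement GGAAAG was in 0 of 61 and in 1.37% of the windows of other tested genes. The windows of the 4 matching genes with the lowest ratios are shown as examples of starts that hold these letters, with CTTTCC in capitals, and 10 of 61 is the minority of the family. Base 11 is the annotated start. CTTTCC begins at base 11 in Rpl38, 13 in Rpl35a and 15 in Rps10, and in Rpl35 it begins at base 6 and takes in base 11. Its place thus varies, and the annotated start need not be the capped base.
Rpl38 (chr11:114668570-114668599, plus strand): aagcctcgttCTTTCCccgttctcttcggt
Rps10 (chr17:27635225-27635254, minus strand): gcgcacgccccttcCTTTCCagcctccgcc
Rpl35 (chr2:39005112-39005141, minus strand): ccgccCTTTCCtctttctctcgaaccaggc
Rpl35a (chr16:33056472-33056501, plus strand): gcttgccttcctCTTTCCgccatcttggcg
Their levels were 985 CPM for Rpl38 in cluster 9, against 2827 CPM (-1.52), 1645 CPM for Rps10, against 4709 CPM (-1.51), 184 CPM for Rpl35, against 526 CPM (-1.49), and 1287 CPM for Rpl35a, against 3571 CPM (-1.47).

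Other abundant transcripts of the cytoplasm were lower too. Among all genes 6.31% were past the fold downwards. Among 20 translation factors, 4 had a ratio above 0 and 5 were past the fold downwards, with a median of -0.88. Tpt1, a translationally controlled tumour protein, had 3262 CPM in cluster 9, against 8327 CPM (-1.35), and Eef1a1, which brings aminoacyl-tRNA to the ribosome, had 2768 CPM, against 5464 CPM (-0.98), whereas Eif4a2 (0.61) and Pabpc1 (0.37) were above 0. Among 20 cytoskeletal genes, 1 had a ratio above 0 and 6 were past the fold downwards, with a median of -0.88. The actin-sequestering gene Tmsb4x had 7261, 7230, 7465 and 7920 CPM in the cluster 9 cells of fasted, refed, ad libitum and naive spleen, against 21890, 23117, 25422 and 23606 CPM in the other clusters of these populations, without overlap. Its ratio was -1.54 (-1.58 to -1.49), and it was -0.12 over cluster 6. Actb, encoding beta-actin, had 4621 CPM, against 7570 CPM (-0.71). In glycolysis 3 of 13 tested genes were past the fold downwards, among them Gapdh (308 CPM, against 670 CPM, -1.11) and Aldoa (-1.19), and the glucose transporter gene Slc2a3 was higher (1.19).

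Gene families were chosen after their values had been seen, so their places on either side of the all-gene median are a description only. Among all genes 16.2% were past the fold upwards and 6.31% downwards. Below the all-gene median lay mitochondrial ribosomal proteins (73 genes, median -0.68, 16 past the fold downwards), complex I subunits (42 genes, -0.85, 13 downwards), proteasome subunits (37 genes, -0.73, 2 downwards), the Lsm and Snrp proteins of the spliceosome (21 genes, -0.73, 5 downwards) and the CCT chaperonin (7 genes, -0.69, 0 downwards). Above it lay zinc finger proteins named Zfp (83 genes, median 0.82, 36 past the fold upwards and 1 downwards), ubiquitin-specific proteases (26 genes, 0.74, 9 upwards), lysine methyltransferases and demethylases (20 genes, 0.84, 5 upwards), solute carriers (63 genes, 0.75, 21 upwards and 1 downwards) and integrins (12 genes, 1.25, 10 upwards). Rab GTPases (31 genes, 0.05) and V-ATPase subunits (12 genes, 0.08) were below the all-gene median, and their sign turned negative with TMM factors (-0.41 and -0.33). No gene of the mitochondrial ribosomal, complex I, proteasome, Lsm and Snrp or CCT families was past the fold upwards. Proteasome and CCT genes were past the fold downwards no more often than all genes, so only their medians stood apart.

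**Figure D3:**
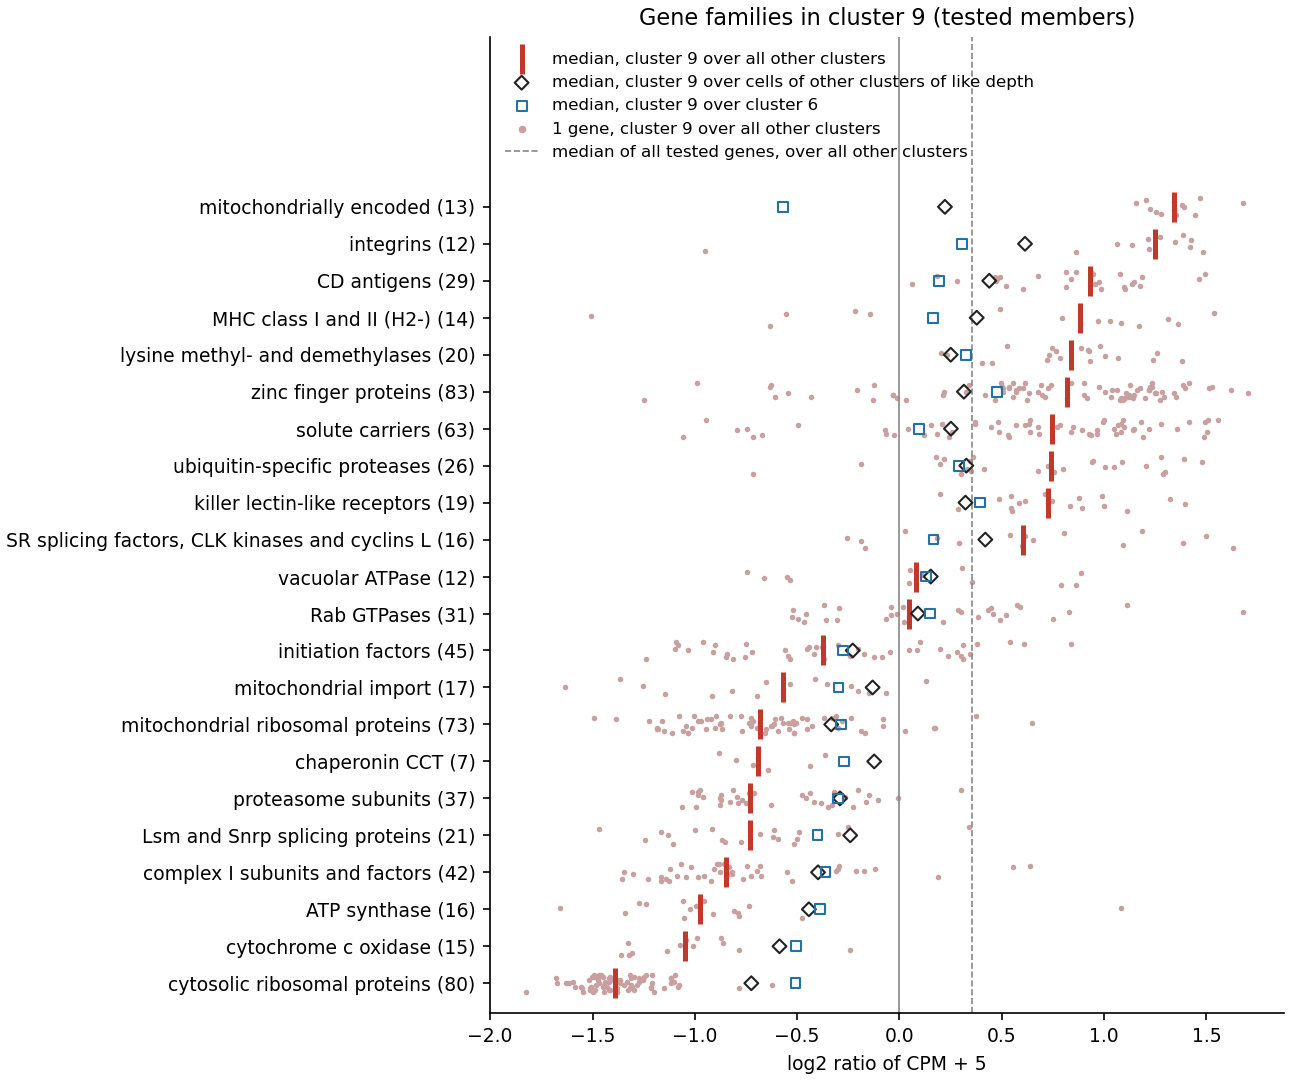
Log2 ratios of cluster 9 over the other clusters (CPM + 5) for the members of each family or list (dots), with the family median (red bar), the median over depth-matched cells (diamond) and over cluster 6 (blue square); the dashed line marks the median of all tested genes, 0.35. Ribosomal protein genes lie at -1.39 and mitochondrially encoded genes at 1.34, and the mitochondrially encoded genes are at -0.57 over cluster 6.

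The ratio went with transcript length. In the octile of genes with the shortest annotated transcripts (204 to 1284 bases), the median ratio was -0.73, and it was -0.66 without ribosomal protein genes. The medians of the next octiles were -0.23, 0.03, 0.25, 0.46, 0.58, 0.74 and, for transcripts of 6376 to 40378 bases, 0.88. Of the genes in the shortest octile 2.79% were past the fold upwards and 30.9% downwards, and of those in the longest 38.1% and 0.398%. The spread from shortest to longest was -0.32 to 0.35 over the depth-matched cells and -0.26 to 0.29 over cluster 6, and -0.49 to 0.50 over cluster 7. Transcript length and gene span were correlated, so genes were also split at the medians of both, 3049 bases and 23875 bases. Genes with short transcripts had medians of -0.24 with a short span (2269 genes) and 0.07 with a long span (740 genes), and genes with long transcripts had medians of 0.49 (740 genes) and 0.73 (2270 genes), so both lengths went with the ratio and the transcript more so. Some families departed from their length. The mitochondrially encoded genes (median transcript 784 bases) lay 1.98 above and the killer cell lectin-like receptor genes (1294 bases) 1.21 above the median of their length octiles, and the ribosomal protein genes (906 bases) lay -0.70 from theirs.

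**Figure D4:**
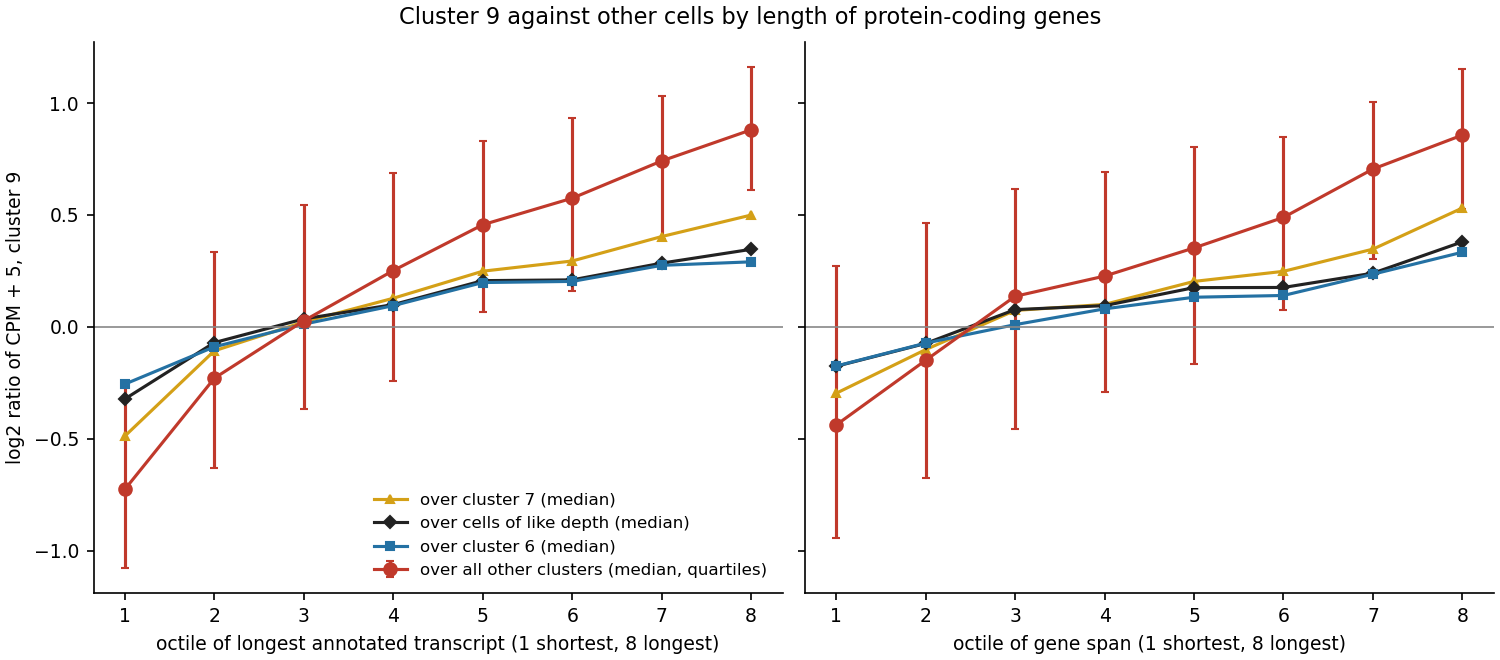
Median log2 ratio of cluster 9 over the other clusters, over cluster 6, over cluster 7 and over depth-matched cells in octiles of annotated transcript length (left) and gene span (right). Over the other clusters the medians run from -0.73 for the shortest to 0.88 for the longest transcripts.

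NK identity genes were mostly higher in cluster 9. All 17 tested NK identity genes had a ratio above 0, against 4006 of all 6233 genes. Past the fold upwards was 1 of the 17, against 16.2% of all genes. The median was 0.73, above the 0.35 of all genes, and it was 0.31 over the depth-matched cells and 0.39 over cluster 6. Ncr1, the activating receptor NKp46, had 1802, 2226, 1941 and 2468 CPM in the cluster 9 cells of fasted, refed, ad libitum and naive spleen, 540 CPM in fasted tumour and 1499 CPM in ad libitum bone marrow. The other clusters had 1030, 1099, 1294, 1217, 270 and 729 CPM in the same populations. Ncr1 was higher in 6 of 6 populations, although tumour values lay below spleen values in either group, and its ratio was 1.06 (0.96 to 1.15). Klrb1c, which encodes the sorted antigen NK1.1, had 1043 CPM, against 565 CPM (0.88), and Itga2, which encodes the sorted antigen CD49b, had 132 CPM, against 43.8 CPM (1.48). The transcription factor genes Eomes (244 CPM, against 207 CPM; 0.23, interval -0.03 to 0.48) and Tbx21 (124 CPM, against 108 CPM; 0.19) were close to equal, below the all-gene median, and at -0.17 and -0.04 over the depth-matched cells. The adaptor gene Tyrobp was higher in 2 and lower in 4 of the 6 populations, and Nkg7, Eomes and Tbx21 were each higher in 4 and lower in 2.

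Maturation genes were not tilted to one end. Of 12 mature NK genes 10 had a ratio above 0, with a median of 0.66, and of 12 immature NK genes all 12 did, with a median of 0.76, and 3 of each list were past the fold. Among all genes 4006 of 6233 had a ratio above 0 and 16.2% were past the fold upwards. Zeb2, a transcription factor of terminal maturation, had 774 CPM, against 272 CPM (1.49), Itgam (CD11b) had 265 CPM, against 101 CPM (1.35), and Cd27, a marker of earlier stages, had 207 CPM, against 94.0 CPM (1.10). S1pr5, the receptor through which mature NK cells leave lymphoid tissue, had 178 CPM, against 88.2 CPM (0.97), Klrg1 had 134 CPM, against 90.0 CPM (0.55), and Cx3cr1 had 21.3 CPM, against 28.5 CPM (-0.35, interval -1.11 to 0.37). Over cluster 6 the mature list was at 1.07 and the immature list at 0.06. The killer cell lectin-like receptors included Klrb1f (538 CPM, against 202 CPM, 1.40) and Klrc2 (738 CPM, against 292 CPM, 1.32).

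Effector genes differed among themselves. Gzma, granzyme A, had 20100 CPM in cluster 9, against 11677 CPM (0.78), and Prf1, perforin, had 565 CPM, against 275 CPM (1.03, interval 0.86 to 1.19), each higher in 6 of 6 populations. Gzmb, granzyme B, had 1303 CPM, against 1421 CPM (-0.12), with a higher level in 2 and a lower level in 4 of the 6 populations. Gzmc (432 CPM, against 2061 CPM, -2.24), Gzmd (23.2 CPM, against 185 CPM, -2.75) and Gzmf (-2.06), granzymes of strongly activated NK cells, were among the lowest genes, but Gzmc was at 0.50 and Gzmd at 0.52 when spleen cells were compared with spleen cells. A single cell held 32.3% of the cluster 9 UMIs of Gzmc. Of 14 cytotoxic effector genes 2 were past the fold upwards, Prf1 and the death ligand gene Fasl, and 2 downwards, and the median of 0.24 turned to -0.23 with TMM factors. Among all genes 16.2% were past the fold upwards and 6.31% downwards.

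Among cytokines, the chemokine Ccl5 was lower with 7654 CPM in cluster 9, against 15395 CPM (-1.01, interval -1.05 to -0.96), in 6 of 6 populations, but it was at 0.31 over cluster 6. Ifng, interferon gamma, had 362 CPM, against 210 CPM (0.77), and was higher in 6 of 6 populations. Tnf, tumour necrosis factor, had 48.4 CPM, against 8.54 CPM (1.98, interval 1.41 to 2.51), and was detected in 16 of the 323 cells. Immediate early genes were mostly higher: 22 of 24 had a ratio above 0, 6 were past the fold upwards and 1 downwards, and the median was 0.59. Among all genes 4006 of 6233 had a ratio above 0, 16.2% were past the fold upwards and 6.31% downwards, and the median was 0.35. Fosb had 544 CPM, against 160 CPM (1.74), Jun 1316 CPM, against 548 CPM (1.26), Fos 501 CPM, against 207 CPM (1.26), and Btg2, an antiproliferative gene, 1129 CPM, against 520 CPM (1.11). The exception was Atf3 (9.68 CPM, against 26.3 CPM, -1.09), of which 1 cell held 80.0% of the UMIs in cluster 9. Heat shock genes had a median of 0.22, with Hspa1b past the fold (65.8 CPM, against 17.4 CPM, 1.66), and the median turned to -0.25 with TMM factors and was -0.15 over cluster 6.

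A list of surface receptor and adhesion genes chosen for long transcripts was higher in cluster 9. All 14 tested genes had a ratio above 0 and 9 were past the fold. The median was 1.12, which was 0.42 over the depth-matched cells and 0.27 over cluster 6. In the octile of longest transcripts these medians were 0.88, 0.35 and 0.29, and 38.1% of genes were past the fold upwards. The part of transcript length in this list was not tested. Among all genes 16.2% were past the fold upwards and 6.31% downwards. Ptprc, the leukocyte phosphatase CD45, had 3595 CPM in cluster 9, against 1251 CPM (1.52), Itga4, the alpha chain of VLA-4, 1216 CPM, against 450 CPM (1.42), and Itgal, the alpha chain of LFA-1, 724 CPM, against 274 CPM (1.39). Of 18 genes of MHC class I presentation 6 were past the fold upwards and 1 downwards, but the list median of 0.66 was -0.13 over cluster 6, where H2-K1 was at 0.08 and H2-D1 at 0.13. The class I heavy chain H2-K1 had 6557 CPM, against 3088 CPM (1.08), H2-D1 5893 CPM, against 3005 CPM (0.97), and the class I transactivator Nlrc5 92.9 CPM, against 27.9 CPM (1.57), whereas the immunoproteasome subunit Psmb8 had 401 CPM, against 698 CPM (-0.79). Bcl2, the inhibitor of apoptosis, had 952 CPM, against 354 CPM (1.41). The cyclin L gene Ccnl1 (418 CPM, against 132 CPM, 1.63) and the splicing kinase Clk1 (439 CPM, against 165 CPM, 1.39) were also higher. Smaller lists stood near the all-gene median of 0.35 or below it: 4 genes of ILC1 and tissue residency had a median of 0.44 (1 upwards, Il18r1), and 9 hypoxia genes -0.21 (2 upwards and 1 downwards).

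Lists chosen for the feeding comparison were above the all-gene median as well. Of 16 genes of the FOXO and KLF2 programme 15 had a ratio above 0 and 5 were past the fold, with a median of 0.85, and of 13 glucocorticoid-responsive genes 11 had a ratio above 0 and 4 were past the fold, with a median of 0.69. Among all genes 4006 of 6233 had a ratio above 0 and 16.2% were past the fold upwards. Single members differed. Cpt1a, which admits long-chain fatty acids to mitochondria, had 48.4 CPM, against 17.9 CPM (1.22), Il7r, the interleukin 7 receptor, 52.3 CPM, against 21.1 CPM (1.13), and Pik3ip1, an inhibitor of PI3 kinase, 56.1 CPM, against 24.4 CPM (1.06), but Tsc22d3, the glucocorticoid-induced leucine zipper, had 110 CPM, against 137 CPM (-0.30, interval -0.68 to 0.06). Txnip (302 CPM, against 238 CPM, 0.34), Klf2 (912 CPM, against 817 CPM, 0.16) and Cxcr4 (130 CPM, against 90.0 CPM, 0.50) were near the all-gene median, and Txnip and Klf2 were at -0.14 and -0.32 with TMM factors. Interferon-stimulated genes had a median of -0.26, and 0.52 over cluster 6. Of 18 such genes 5 were past the fold downwards, against 6.31% of all genes, and 0 upwards. The 5 were Ifit3, Isg15, Isg20, Rsad2 and Ifi27l2a. Genes of dividing cells had a median of -0.40 in pooled counts, and 0.30 when only spleen cells were compared.

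The remaining genes at the bottom of the ranking were of mixed kinds. The neutrophil genes Camp (9.68 CPM, against 67.9 CPM, -2.31), S100a8 (31.0 CPM, against 171 CPM, -2.29) and S100a9 (48.4 CPM, against 237 CPM, -2.18) followed the neutrophil marker sum given above, and after cells with 3 or more defining UMIs of other types were left out they were at 0.54, 1.19 and 1.42. Plac8 (69.7 CPM, against 254 CPM, -1.80) was at 0.73 over cluster 6. S100a13 (130 CPM, against 389 CPM, -1.55), Pdcl3 (-1.63), Smim4 (-1.63), Bccip (-1.61), Cisd1 (-1.59) and Ap3s1 (-1.58) were below 0 over cluster 6 and over the depth-matched cells too.

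Cluster 9 was found in every population, in 1 to 85 cells. Of the 323 cells 271 came from spleen (83.9%), where the cluster held 69 of 1391 fasted singlets (4.96%, interval 3.88 to 6.24), 77 of 1476 refed singlets (5.22%, 4.14 to 6.48), 85 of 1804 ad libitum singlets (4.71%, 3.78 to 5.79) and 40 of 818 naive singlets (4.89%, 3.52 to 6.6). The 4 spleen shares lay within one another's counting intervals, and with 1 sample each nothing further can be said of feeding. In tumour the share was 3.12% in fasted mice (25 of 801), 1.05% in refed mice (1 of 95) and 4.35% in ad libitum mice (2 of 46, interval 0.531 to 14.8). In bone marrow it was 0.735% in fasted mice (1 of 136), 1.78% in refed mice (6 of 337) and 2.96% in ad libitum mice (17 of 575). Over all populations of a tissue it was 2.97% in tumour (1.98 to 4.27), 2.29% in bone marrow (1.47 to 3.39) and 4.94% in spleen (4.38 to 5.54). These shares rest on the lower bound of depth: with cells of at least 2000 UMIs only, cluster 9 was 0.82% of all singlets, and in spleen 0.325% of fasted, 1.44% of refed and 0.67% of ad libitum singlets. The other spleen cells of fasted mice were shallower, with a median of 3558.5 UMIs, against 4309 UMIs in ad libitum spleen.

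Feeding was compared within the cluster 9 cells of spleen, where 3 populations held 50 or more cells. Summed depth was 92691 UMIs for fasted, 128492 UMIs for refed and 130878 UMIs for ad libitum cells. In fasted against ad libitum cells 120 of 7178 genes (1.67%) were past the fold upwards and 100 (1.39%) downwards, 3.06% in all, whereas in the far deeper other clusters 15 of 5395 genes (0.278%) were. The depths differ, with 5256187 UMIs in the fasted and 8724688 UMIs in the ad libitum cells of the other clusters, and their part in these shares was not tested. These values describe cells that had been grouped together first. Median Malat1 was 8.85% of UMIs in fasted and 9.70% in ad libitum cluster 9 cells, the mitochondrial share was 7.37% and 6.95%, and the ribosomal protein share was 10.4% and 9.28%.

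Most glucocorticoid-responsive genes stood higher in fasted cluster 9 cells. Pik3ip1 had 16 UMIs in fasted cells (173 CPM) and 1 UMI in ad libitum cells (7.64 CPM), a log2 ratio of 3.81 (1.68 to 5.18), and 1.86 in the other clusters. Txnip, which restrains glucose uptake, had 51 UMIs (550 CPM), against 27 UMIs (206 CPM), a ratio of 1.39 (0.71 to 2.11), and 1.18 in the other clusters. Serinc3 had 118 UMIs (1273 CPM), against 60 UMIs (458 CPM), a ratio of 1.46 (1.01 to 1.93). Cpt1a had 9 UMIs, against 2 UMIs (2.33, interval 0.36 to 4.13), and Fkbp5, a cochaperone induced by glucocorticoids, had 11 UMIs, against 4 UMIs (1.80, interval 0.19 to 3.47). The intervals for Tsc22d3 (20 UMIs, against 14 UMIs; 0.98, interval -0.04 to 2.03) and Il7r (8 UMIs, against 4 UMIs; 1.36, interval -0.37 to 3.11) held 0. Of the 13 glucocorticoid-responsive genes 11 had a ratio above 0 and 3 were past the fold, with a median of 0.79 and a sum of 2978 CPM, against 1704 CPM. In the other clusters 11 of 12 had a ratio above 0, with a median of 0.76. Of 16 genes of the FOXO and KLF2 programme 10 had a ratio above 0 and 1 was past the fold, with a median of 0.22. Among all genes in cluster 9, 1.67% were past the fold upwards, and the median was 0.04.

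Several cell-cycle genes stood lower in fasted cluster 9 cells. Mki67, a marker of cycling cells, had 2 UMIs, against 21 UMIs of which 13 came from 1 cell, and Cenpf had 1 UMI, against 25 UMIs. Top2a had 10 UMIs, against 46 UMIs of which 15 came from 1 cell, a ratio of -1.66, and it was -0.38 after each cell was thinned to 800 UMIs. Of 16 genes of dividing cells 3 had a ratio above 0 and 6 were past the fold downwards, against 1.39% of all genes. Their median was -0.97, which was -0.26 after thinning. The difference was smaller when each cell counted with the same number of UMIs. In the other clusters 0 of 13 such genes had a ratio above 0 and 2 were past the fold downwards, against 8 of all 5395 genes, with a median of -0.66. There Mki67 was at -1.37, Top2a at -1.19 and Cenpf at -1.15. The chemokine Xcl1 had 26 UMIs, against 86 UMIs (-1.21, interval -1.89 to -0.57), and -0.94 in the other clusters. Klrg1 had 5 UMIs, against 23 UMIs (-1.62), and Gzmb 63 UMIs, against 170 UMIs (-0.93, not past the fold). Of 23 immediate early genes 13 had a ratio above 0 and 0 were past the fold (median 0.03), and of 7 cytokine genes 1 was past the fold downwards. Cx3cr1 had 0 UMIs in fasted cells, which allows up to 32.4 CPM, and 8 UMIs in ad libitum cells. The NK genes Gzma (-0.13) and Ncr1 (-0.11) and Malat1 (-0.09) differed little. By the naming rule the highest genes were Mdh2 (1.95), Klhl6 (1.84), Sdf2 (1.81), Mrpl18 (1.74), Ubtf (1.60), Serinc3, Ing4 (1.43), Adamts14 (1.43), Fbxw7 (1.42) and Txnip. Apart from Serinc3 and Txnip, each had at most 20 UMIs in fasted cells and at most 8 UMIs in ad libitum cells. In the other clusters Klhl6 was at 0.95, Serinc3 at 0.81, Ing4 at 0.28, Sdf2 at 0.17 and Fbxw7 at 0.03. Adamts14 was at -0.07 there, Ubtf at -0.09, Mrpl18 at -0.13 and Mdh2 at -0.25. The lowest, after Cenpf and Mki67, were Cd3d (-2.50, interval -4.42 to -0.66), Scp2 (-2.08), Smc2 (-2.08, interval -3.89 to -0.46), Dbi (-2.03), Anp32e (-2.01, interval -3.82 to -0.38), Maf (-1.94), Tnfrsf9 (-1.94) and Tuba1b (-1.90). For Smc2, 12 of the 20 ad libitum UMIs came from 1 cell.

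**Figure D5:**
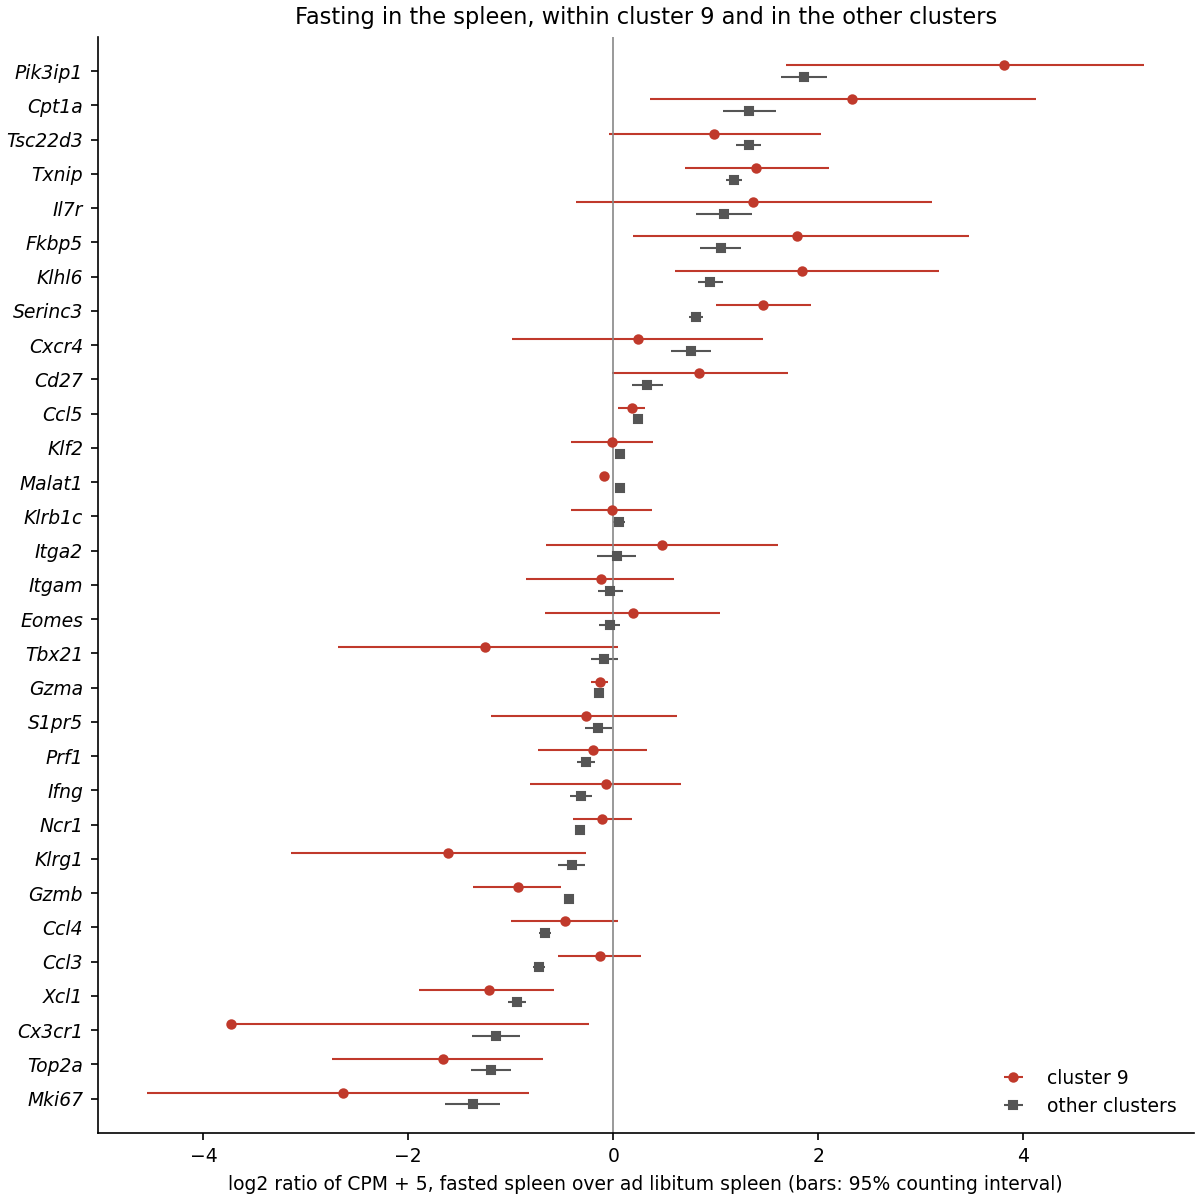
Log2 ratio of fasted over ad libitum spleen (CPM + 5) with 95% counting intervals for the chosen genes, in cluster 9 cells (red, 69 and 85 cells) and below them in the other clusters (grey). Intervals in cluster 9 are wide, as for Pik3ip1 (1.68 to 5.18); Cx3cr1 had 0 UMIs in fasted cluster 9 cells, so the place of its point depends on the 5 CPM added.

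The refed cluster 9 cells of spleen were set against ad libitum and against fasted cells, and these comparisons share their samples with the one above and with each other. In refed against ad libitum cells 232 of 6885 genes (3.37%) were past the fold, and 5 of 5274 (0.0948%) in the other clusters. In refed against fasted cells 66 of 7156 genes (0.922%) were past the fold upwards and 96 (1.34%) downwards, 2.26% in all, and 19 of 5384 (0.353%) in the other clusters. Against fasted cells, Tsc22d3 had 6 UMIs in refed cells and 20 UMIs in fasted cells (-2.09, and -1.62 in the other clusters), and Serinc3 had 92 UMIs, against 118 UMIs (-0.83, and -0.90). Pik3ip1 had 9 UMIs, against 16 UMIs (-1.24, and -1.87). Xcl1 had 103 UMIs, against 26 UMIs (1.5, and 1.15). The chemokine Ccl4 had 226 UMIs in refed cells, against 47 UMIs in fasted cells (1.78, interval 1.33 to 2.27), and 63 of the refed UMIs came from 1 cell. Without the highest cell of each group, with 63 and 7 UMIs, the ratio was 1.54. Of the 13 glucocorticoid-responsive genes 3 had a ratio above 0 and 3 were past the fold downwards, with a median of -0.72, and in the other clusters 0 of 12 had a ratio above 0, with a median of -1.0. Heat shock genes had a median of 0.53 in refed against fasted cells, and of 0.41 in refed against ad libitum cells, where 11 of 13 had a ratio above 0, and Hspa1b had 17 UMIs in refed cells and 4 UMIs in ad libitum cells (1.95, and 1.71 in the other clusters). By the naming rule Tmed7 (1.95), Hspa1b, Ergic3 (1.73), Fbl (1.73) and Ndufa3 (1.73) led the genes higher in refed than in ad libitum cells. In the other clusters Tmed7 was at -0.11, Ergic3 at -0.09, Fbl at 0.18 and Ndufa3 at -0.02. The lowest were Cenpf, with 0 UMIs in refed cells, which allows up to 23.3 CPM, and 25 UMIs in ad libitum cells, Top2a (7 UMIs, against 46 UMIs; -2.58, and -0.03 in the other clusters) and Mki67 (3 UMIs, against 21 UMIs). Against fasted cells Sys1 (2.24, interval 0.64 to 4.04), Tmed7 and Hspa1b (each 1.88, interval 0.23 to 3.71), Ctsa (1.81) and Cmah (1.81) were highest, and Tsc22d3, Srp19 (-2.02), Ilf2 (-1.69), Mob4 (-1.69) and Ubl3 (-1.69) were lowest. In the other clusters Sys1 was at -0.15, Tmed7 at -0.22, Hspa1b at 1.53, Ctsa at -0.08 and Cmah at 0.24. Srp19 was at 0.22 there, Ilf2 at -0.02, Mob4 at -0.11 and Ubl3 at -0.35. In cluster 9 the summed counts of Mki67, Top2a and Cenpf were thus higher in ad libitum than in fasted or refed cells. For each gene the highest ad libitum cell held 13 of the 21 UMIs of Mki67, 15 of the 46 of Top2a and 9 of the 25 of Cenpf. Against fasted cells the difference was smaller after thinning, as given above.

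The barcodes of cluster 9 that the authors called doublets were looked at for comparison. Of 578 classified cluster 9 barcodes 255 were called doublets (44.1%, interval 40.0 to 48.3), against 42.8% in the other clusters (5351 of 12507). These 255 barcodes had a median of 1409 UMIs, about that of the singlets, with a Malat1 share of 9.0%, a mitochondrial share of 8.02% and a ribosomal protein share of 9.84%.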

How the data were processed

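The authors deposited UMI counts per cell and gene, cluster numbers, a hashtag classification and a key from hashtag to population. Per the labels' protocol seqc made the counts, and per the submitters' processing notes the genome build was mm10. The aligner and the methods of clustering and hashtag assignment are not stated in these sources. The 13118 cells had 16800 gene columns. The classification covered 13085 of these barcodes, each once, and 33 had none. All came from 1 lane. The 5606 barcodes that the authors called doublets were left out, no doublet caller was run, and no further filter was applied.

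UMIs were summed over the cells of a group and scaled to CPM. A ratio is log2 of CPM + 5, with a 95% exact binomial interval of the 2 counts given both totals. Intervals and floors cover counting error only. Depth-matched cells were singlets of the other clusters with 856.8 to 2291.8 UMIs. Named genes were the 15 highest and 15 lowest with at least 50 CPM on 1 side and an interval without 0, leaving out unnamed gene models and haemoglobin, immunoglobulin, T cell receptor, mitochondrial and ribosomal protein genes, of which the last 2 kinds are described as groups (in spleen contrasts 10 and 10, with at least 20 UMIs), chosen NK genes and list members. Families, length groups and further genes, such as Tnf, Zeb2 and Bcl2, were chosen after their values were seen. The members and lists were chosen with earlier results of these data known. Loci and transcript lengths came from GENCODE M21, which matched 16278 of 16789 symbols, and start windows from RefSeq. Alternatives were TMM factors from edgeR 4.0.16, thinning to 800 UMIs, means over cells, other filters and other comparison cells. Software was R 4.3.3, Python 3.11.15, pandas 2.3.3, matplotlib 3.10.9, scipy 1.17.1 and numpy 2.4.6. Ratios were also computed on simulated counts with known changes, drawn without spread between cells, so that run covers counting error only.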

Additional observations from a re-analysis of the deposited data

Results flagged for a closer look

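The genes named by rank or chosen for the spleen contrasts were looked at. For 8 of them the counting interval in the cluster 9 cells of spleen lay on one side of 0 and that in the other spleen cells on the opposite side, with a log2 ratio of at least 1 in size in cluster 9, and the difference between the 2 was not tested. Genes named by rank were picked for their cluster 9 ratio. In all, 220 of 7178, 232 of 6885 and 162 of 7156 genes were past the fold in cluster 9 in the contrasts below. In fasted against ad libitum cells these were Mdh2, malate dehydrogenase of the mitochondrion (1.95 in cluster 9, -0.25 in the other clusters), the mitochondrial ribosomal gene Mrpl18 (1.74 and -0.13) and the transcription factor gene Maf (-1.94 and 0.35). In refed against ad libitum cells they were the chemokine gene Ccl4 (1.32 and -0.17) and Klhl6 (1.31 and -0.17), and Ccl4 was at 0.99 without the highest cell of each group, which held 63 of 226 refed and 9 of 92 ad libitum UMIs. In refed against fasted cells they were Sys1 (2.24 from 22 and 3 UMIs, interval 0.64 to 4.04, and -0.15), Srp19 (-2.02 and 0.22) and Klrg1 (1.45 and -0.18).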

How the results depend on the processing

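The count of higher genes, 1011, was 156 with TMM factors, 660 with a minimum of 50 CPM, 614 with populations weighted alike, 355 with 20 CPM added, 197 over depth-matched cells and 183 over cluster 6. The count of lower genes, 393, was 1092 with TMM factors, 664 with mitochondrial, ribosomal protein and ribosomal RNA-linked genes left out of the totals, 221 with 20 CPM added, 77 over depth-matched cells and 236 over cluster 6. In fasted against ad libitum spleen cells, thinning left 75 genes higher and 37 lower, against 120 and 100. With cells of at least 1000 and 2000 UMIs the share of cluster 9 was 3.61% and 0.82% of all singlets, and in spleen 3.42% and 0.67% (ad libitum), 0.325% (fasted, 2000 UMIs) and 1.44% (refed, 2000 UMIs). Signs turned, with the cause not tested, for the following genes whose main interval left out 0 and list medians of at least 0.5 in size. Over cluster 6 they were Camp 0.18, Ccl5 0.31, Cxcr4 -0.32, Gzmb 0.93, Gzmd 0.54, Plac8 0.73, S100a8 0.16, S100a9 0.63 and Xist -0.18, and the medians of MHC class I (-0.13) and mitochondrially encoded genes (-0.57). With spleen cells only they were Camp 0.56, Gzmc 0.50, Gzmd 0.52, Gzmf 0.70, Klf2 -0.15, S100a8 1.16 and S100a9 1.30. With populations weighted alike they were Camp 0.75, Klf2 -0.014, S100a8 0.58, S100a9 1.10 and Txnip -0.29. Without cells carrying markers of other types they were Camp 0.54, S100a8 1.19 and S100a9 1.42. Over depth-matched cells they were Gzmb 0.47, Gzmf 0.35 and S100a9 0.62, and with called doublets included Gzmb 0.16. Klf2 was -0.32 with TMM factors, -0.19 as a mean over cells, -0.33 after thinning and -0.050 with reduced totals, and Txnip -0.14 with TMM factors and -0.049 after thinning. Values nearer 0 turned too, among them Tsc22d3 (0.58), Cx3cr1 (0.22) and the medians of heat shock (-0.15), interferon-induced (0.52) and hypoxia genes (0.30) over cluster 6, and Eomes (-0.17), Tbx21 (-0.04) and the median of dividing-cell genes (0.15) over depth-matched cells. Of 780 gene values under alternatives 551 moved by no more than 0.5 of the width of their counting interval, 195 moved by more and 34 turned in the sense above. The 551 include 52 values without a minimum level and 52 with a minimum of 50 CPM. Those settings change only the genes counted and leave every ratio as it was. No paired analysis was possible because each population is 1 sample. Shares per population with doublets included were not run, since called doublets have no population.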
